A study of Mus musculus with 20 samples.

Results

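The levels of 10 macrophage genes were followed across MB49 tumors and cultures. They are Adgre1, Csf1r, Spi1, Mrc1, Arg1, Nos2, Cd163, Mertk, Fcgr1 and Trem2, taken by gene name from the tables. They make up 10 of the 28025 genes listed for tumors, and 5 of them (Csf1r, Spi1, Mrc1, Nos2 and Trem2) are among the 14701 genes listed for cultures. The other 5 were not analysed here in the cultures. MB49 is a bladder cancer cell line of the mouse, and the study compared its Y chromosome negative with its Y chromosome positive form by RNA-seq. Each of 4 groups has 5 libraries. The tumor libraries are coded MN (11 to 15) where the cells were Y-negative and MP (6 to 10) where they were Y-positive, and the culture libraries BN (2, 3, 6, 9 and 10) and MB (8, 11, 17, 19 and 34) in the same order. Cultures were kept in DMEM with serum, and both kinds of tumor grew subcutaneously in wild-type C57BL/6 males, whose own cells carry a Y chromosome. No treatment, age or harvest day is given in the labels, and nothing in them ties a library to a separate animal, culture or clone, so the p-values cover the spread from library to library, which may be technical.

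Macrophages are phagocytes that arise from embryonic precursors or from blood monocytes and gather in most solid tumors. Their identity rests on the transcription factor PU.1, encoded by Spi1, and on signalling through the CSF1 receptor, encoded by Csf1r. Adgre1 encodes F4/80, a surface marker of mouse macrophages. In the classical scheme of polarization, interferon gamma and microbial products induce Nos2, whose product makes nitric oxide from arginine, while interleukin 4 induces Arg1, whose product splits the same amino acid into ornithine and urea, and the mannose receptor gene Mrc1. Cd163 encodes a scavenger receptor for haemoglobin, Mertk a receptor kinase for the uptake of dying cells, Fcgr1 the high-affinity receptor for immunoglobulin G, and Trem2 a lipid-sensing receptor. These genes are not exclusive to macrophages: Nos2 and Arg1 can be made by neutrophils, and Nos2 by tumor cells.

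The sequences in front of 4 of these genes are shown because Spi1 encodes a DNA-binding protein with a known core motif. In addition, Mrc1 and Trem2 differ in where they were read: Mrc1 in cultures and tumors, Trem2 almost exclusively in tumors. Fcgr1 and Cd163 were not analysed here in the cultures. Each is the 250 bases before the start site from RefSeq on GRCm38.p6, the build also named mm10, printed 5′ to 3′ on the strand of the gene. Capitals mark matches, on either strand, to GAGGAA, the core of PU.1 sites, or to TGANTCA, the form bound by AP-1. Of the 10 genes, 5 matched an entry.
Mrc1 (chr2:14229164-14229413, plus strand): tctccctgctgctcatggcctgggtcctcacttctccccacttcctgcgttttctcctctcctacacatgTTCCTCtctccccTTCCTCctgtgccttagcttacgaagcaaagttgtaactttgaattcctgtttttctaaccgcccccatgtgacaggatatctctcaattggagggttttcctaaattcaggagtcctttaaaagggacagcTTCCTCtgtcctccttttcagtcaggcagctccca
Trem2 (chr17:48346151-48346400, plus strand): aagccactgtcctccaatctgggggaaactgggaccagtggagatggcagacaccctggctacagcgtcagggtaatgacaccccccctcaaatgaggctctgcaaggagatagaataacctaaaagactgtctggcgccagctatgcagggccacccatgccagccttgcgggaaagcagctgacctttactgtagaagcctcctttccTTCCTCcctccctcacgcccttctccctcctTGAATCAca
Fcgr1 (chr3:96293970-96294219, minus strand): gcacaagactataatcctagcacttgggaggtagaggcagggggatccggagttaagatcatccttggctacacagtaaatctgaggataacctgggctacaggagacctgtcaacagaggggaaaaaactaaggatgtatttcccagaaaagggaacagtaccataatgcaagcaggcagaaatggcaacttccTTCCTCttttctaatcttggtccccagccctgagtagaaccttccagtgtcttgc
Cd163 (chr6:124304401-124304650, plus strand): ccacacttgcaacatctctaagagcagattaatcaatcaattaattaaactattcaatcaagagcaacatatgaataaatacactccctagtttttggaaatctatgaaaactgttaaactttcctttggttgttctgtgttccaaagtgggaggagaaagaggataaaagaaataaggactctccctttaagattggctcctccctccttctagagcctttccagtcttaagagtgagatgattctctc
The PU.1 core stood in Mrc1 3 times, all on the minus strand and starting at bases -180, -167 and -35 from the start site. It stood once in Trem2, at -40, and once in Fcgr1, at -55. Trem2 also had an AP-1 form at -9. Cd163 and Mertk, whose window lies at chr2:128698665-128698914, held none of the 5 motifs searched. Among 32851 such windows of mouse genes, 23.3% held GAGGAA and 6.75% TGANTCA. The other 3 motifs, TTGCNNCAA of C/EBP (1.74% of windows), GAAANNGAA of the interferon response (7.13%) and TGACGTCA, the cyclic AMP response element (1.55%), were in none of the 5 windows. A match is a run of letters, not a measured binding site.

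Library totals ran from 14557118 to 21180885 reads. As a check of the labels, the Y-linked gene Kdm5d held 0 and 1885 reads in Y-negative and Y-positive cultures, and 3.25 ± 0.82 CPM (SD, n = 5) against 20.5 ± 7.49 in tumors. CPM is the read count scaled to the size of its library. Among the Y-negative tumors, MN12 and MN15 stood apart from MN11, MN13 and MN14. Counts differed between these sets by a chi-square of 90.1 to 127 per degree of freedom, against 13.8 between MN12 and MN15 and 7.47 to 14.7 among the other 3. The slope of expression on transcript length was -0.10 in MN12 and -0.09 in MN15 but 0.17 to 0.21 in the other 3, and ran from -0.23 (MP9) to 0.07 (MP6) in the Y-positive tumors. Calls that changed with either set are given with and without it.

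Nos2 was higher in the Y-negative tumors and was the single one of the 10 genes to pass the test there. Nos2 (ENSMUSG00000020826, mm10 chromosome 11, 78920787 to 78960254, plus strand) encodes inducible nitric oxide synthase. Its level was 118 CPM in MN11, 105 in MN12, 113 in MN13, 132 in MN14 and 92.8 in MN15. The Y-positive libraries had 41.6 CPM in MP6, 75.7 in MP7, 47.4 in MP8, 37.5 in MP9 and 57.0 in MP10. All 5 Y-negative libraries lay above all 5 Y-positive ones, with MN15 as the lowest of the first group and MP7 as the highest of the second. The group means were 112 ± 14.6 CPM (SD, n = 5) and 51.9 ± 15.2, a rise of 1.10 ± 0.18 on the log2 scale, or 2.14-fold (SE, adjusted p = 0.0114, edgeR's quasi-likelihood test over all genes). Nos2 ranked 49th by p among 14783 genes tested, of which 362 (2.45%) were called at an adjusted p under 0.05. Against that share, 1 of the 10 macrophage genes was called.

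The size of the Nos2 difference changed little with the libraries used, while its call did not always hold. With any 1 library left out it was 1.001 to 1.269 and called. Without MN11, MN13 and MN14 it was 0.99 ± 0.24, not called (adjusted p = 0.205, edgeR), in a fit that called 0.132% of genes. In the fit over all 20 libraries it was 1.05 ± 0.35 (adjusted p = 0.104, edgeR), where 2.23% of genes were called.

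**Figure D1:**
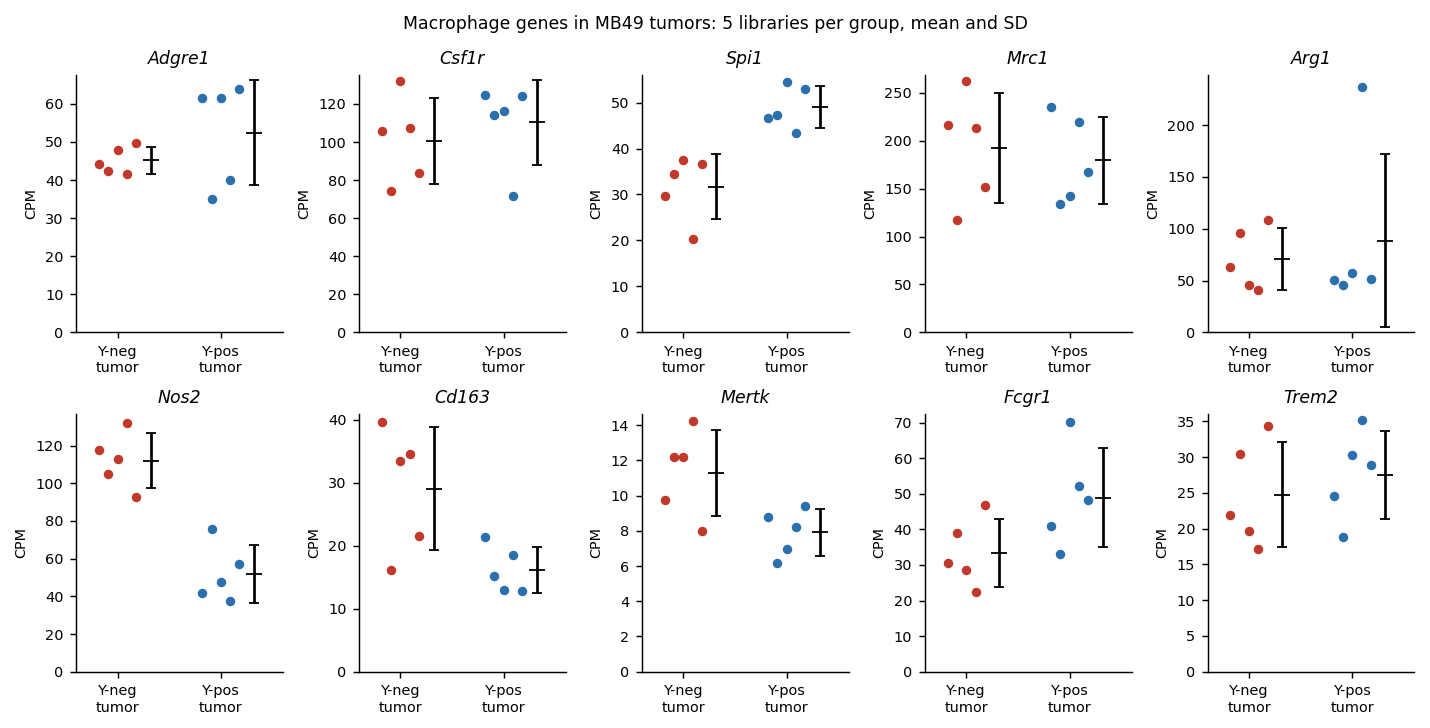
Level of each of the 10 genes in tumors, in CPM on linear axes from 0. Each point is 1 library (red, Y-negative; blue, Y-positive), and the bar beside it gives the mean and SD of 5 libraries. The groups do not overlap for Nos2 and Spi1, and a single Y-positive library carries Arg1 to 237 CPM.

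Arg1, the arginase gene that shares its substrate with Nos2, did not differ between the groups beyond their spread. Arg1 (ENSMUSG00000019987, chromosome 10, 24915221 to 24927484, minus strand) stood at 63.2 CPM in MN11, 96.1 in MN12, 45.6 in MN13, 40.9 in MN14 and 108 in MN15. The Y-positive libraries had 50.5 CPM in MP6, 45.7 in MP7, 57.4 in MP8, 237 in MP9 and 51.3 in MP10. MP9 lay far above the other 4 libraries of its group, which kept within a narrow band, and MN12 and MN15 were the highest of the Y-negative tumors. Skeletal muscle genes were also highest in MP9, at a summed 2100 CPM against 2.86 to 545 CPM in the other tumors, as were adipocyte genes, at 216 CPM against 10.5 to 61.0 CPM, and their part in the Arg1 level was not tested. The difference was -0.33 ± 0.48 (adjusted p = 0.712, edgeR), and without MP9 it turned to 0.49 ± 0.29 (adjusted p = 0.410, edgeR).

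By the authors' FPKM Arg1 exceeded Nos2 in 9 of the 10 tumors. The lengths behind the FPKM do not match those listed for the genes, 2228 bases for Arg1 and 4412 for Nos2. The ratio of the 2 genes depends on which lengths are used. The authors' FPKM, reads scaled to transcript length and library size, had a median of 72.3 for Arg1 and 41.0 for Nos2 in the Y-negative tumors, and of 58.7 and 17.2 in the Y-positive ones. The log2 ratio of Arg1 to Nos2 was 0.76 in MN11, 1.53 in MN12, 0.35 in MN13, -0.03 in MN14 and 1.87 in MN15. Among the Y-positive tumors it was 1.93 in MP6, 0.93 in MP7, 1.93 in MP8, 4.31 in MP9 and 1.5 in MP10. The ranges overlap, and in MN14 both genes stood at about the same level by this measure.

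**Figure D2:**
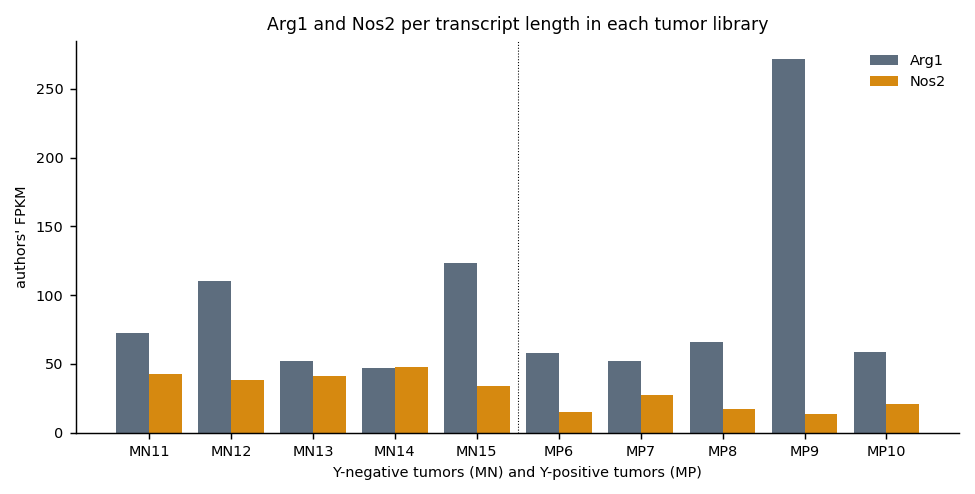
The authors' FPKM of Arg1 (grey) and Nos2 (orange) in each tumor library, on a linear axis from 0, with Y-negative tumors (MN) left of the dotted line and Y-positive tumors (MP) right of it. Nos2 is at 33.7 FPKM or more in the Y-negative tumors and at 27.5 or less in the Y-positive ones, while Arg1 reaches 272 FPKM in MP9.

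Of the other enzymes and transporters of arginine metabolism, 11 were tested, and 0 were called higher and 1 lower, with a median change of -0.29 against -0.01 over all genes. The gene that passed was Ass1, which encodes the synthase that rebuilds arginine from citrulline. Ass1 stood at 19.97 to 31.0 CPM in the Y-negative tumors and 34.1 to 64.7 CPM in the Y-positive ones, with no overlap, a fall of 0.85 ± 0.21 on the log2 scale (adjusted p = 0.0487, edgeR). Of 20 alternatives, 10 lost the call, including the fits without MN11 (adjusted p = 0.141), MN13 (0.106), MN14 (0.127), MP8 (0.121), MP9 (0.0946) or MP10 (0.0948), all by edgeR. Without MN12 and MN15 Ass1 was at -1.14 (adjusted p = 0.00723, edgeR), and without MN11, MN13 and MN14 at -0.54 (adjusted p = 0.569, edgeR).

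Of the genes of macrophage identity, Spi1 was lower in every Y-negative tumor yet did not pass the test, and Csf1r and Adgre1 overlapped. Spi1 (ENSMUSG00000002111, chromosome 2, 91082390 to 91115756, plus strand) stood at 29.6 CPM in MN11, 34.4 in MN12, 37.5 in MN13, 20.3 in MN14 and 36.6 in MN15. The Y-positive libraries stood at 46.7 CPM in MP6, 47.4 in MP7, 54.4 in MP8, 43.4 in MP9 and 53.0 in MP10. MN13, the highest of the first group, lay below MP9, the lowest of the second. The difference was -0.63 ± 0.17 (adjusted p = 0.0675, edgeR), and it was called with DESeq2 (adjusted p = 0.0166) and without MN12 (-0.70, adjusted p = 0.0494, edgeR). Groups without overlap were found for 2 of the 10 genes, Nos2 and Spi1, and for 806 of 14783 genes tested (5.45%). DESeq2 called 3 of the 10, Nos2, Spi1 and Cd163, in a fit that called 9.0% of all genes.

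Csf1r stood at 106 CPM in MN11, 74.4 in MN12, 132 in MN13, 107 in MN14 and 83.9 in MN15, and the Y-positive tumors had 125 in MP6, 114 in MP7, 116 in MP8, 71.6 in MP9 and 124 in MP10. MP9 was the lowest of all 10 libraries for this receptor gene and the highest for Arg1. The group difference was -0.15 ± 0.16 (adjusted p = 0.621, edgeR). Adgre1 held a narrow range in the Y-negative tumors, 41.6 to 49.8 CPM, and a wide one in the Y-positive tumors, where MP7 had 35.0 and MP9 39.9 but MP6, MP8 and MP10 61.5 to 63.8. Its difference was -0.21 ± 0.17 (adjusted p = 0.466, edgeR).

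In bulk tumor RNA, the number of macrophages, the RNA of these genes per macrophage and their RNA from other cells cannot be told apart. For that reason 22 other genes shared by macrophages and monocytes were set beside the 10. The cultures also had Nos2 (17.7 to 107 CPM) and Mrc1 (17.9 to 154 CPM), and of the list Cd68 (27.7 to 177 CPM) and Cd14 (16.2 to 49.0 CPM). A level relative to the list is therefore no measure per macrophage. Of these 22 genes, 20 had a negative change, with a median of -0.38 against -0.01 over all genes, and 0 were called by edgeR or limma-voom, 4 by DESeq2 and 8 at an unadjusted p under 0.05. The cathepsin gene Ctss was at -0.67 ± 0.18 (adjusted p = 0.0666, edgeR) and the complement gene C1qc at -0.46 ± 0.14 (adjusted p = 0.0963, edgeR). Their summed level was 1917 to 3570 CPM in the Y-negative and 2673 to 4258 CPM in the Y-positive tumors, and none of the 22 was at 0 reads in either group. Among the 10 macrophage genes, 6 had a negative change and the median was -0.15, with 5 at an unadjusted p under 0.05 where 22.7% of all genes were.

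Set against the mean log2 CPM of those 22 genes in the same library, Nos2 stood 0.30 to 1.38 above it in the Y-negative tumors and between 1.05 below and 0.14 above it in the Y-positive ones. The groups did not overlap and their means differed by 1.499, against 1.10 in the fit before this step. The list mean itself differed by -0.35, Y-negative minus Y-positive, with overlap. Subtracting it therefore raised the difference of every gene by that amount. Spi1 stood 0.88 to 1.32 below the list in the Y-negative and 0.54 to 0.85 below it in the Y-positive tumors, also without overlap, a difference of -0.30 that is smaller than its -0.63 before this step. Cd163 differed by 1.15 and Mertk by 0.85 on this scale, with overlap. Csf1r (0.22), Adgre1 (0.18), Trem2 (0.18), Fcgr1 (-0.19), Arg1 (0.27) and Mrc1 (0.43) overlapped too. The differences of Csf1r, Adgre1, Trem2 and Arg1 were negative before this step. With the mean of the list as a covariate in the edgeR fit, Nos2 was at 0.91 ± 0.22 and not called (adjusted p = 0.118), as were the other 9 genes, in a fit that called 0.237% of all genes.

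**Figure D3:**
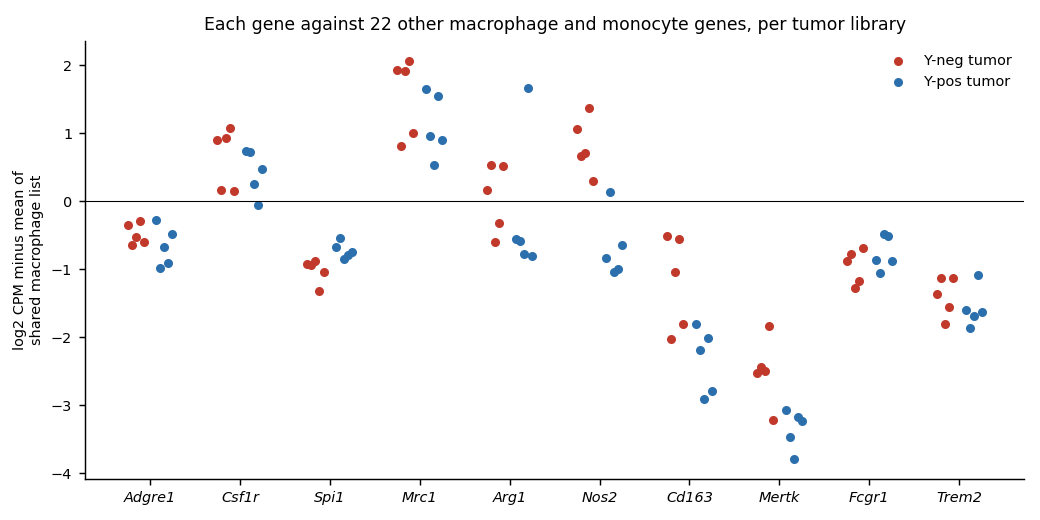
Log2 CPM of each gene minus the mean log2 CPM of 22 other macrophage and monocyte genes, 1 point per tumor library (red, Y-negative; blue, Y-positive), with 0 marking the list. Nos2 and Spi1 are the genes whose groups do not overlap, Nos2 with the Y-negative tumors above and Spi1 with them below.

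The scavenger and uptake receptors gave higher mean levels in the Y-negative tumors without passing the test. Cd163 (ENSMUSG00000008845, chromosome 6, 124304656 to 124330527, plus strand) stood at 39.6 CPM in MN11, 16.2 in MN12, 33.5 in MN13, 34.6 in MN14 and 21.5 in MN15. In the Y-positive tumors it stood at 21.3 CPM in MP6, 15.1 in MP7, 12.9 in MP8, 18.5 in MP9 and 12.8 in MP10. MN12 lay inside the Y-positive range and the other 4 Y-negative libraries above it. The difference was 0.82 ± 0.22 (adjusted p = 0.0671, edgeR), 1.77-fold. It was 0.95 ± 0.19 and called without MN12 (adjusted p = 0.0247, edgeR), 0.29 without MN11, MN13 and MN14 (adjusted p = 0.762, edgeR) and 0.52 in a fit that had the length slope as covariate (adjusted p = 0.180, edgeR).

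Mertk, on chromosome 2 between 128698956 and 128802894, had the fewest reads of the 10 genes in tumors. Its level was 9.76 CPM in MN11, 12.2 in MN12, 12.2 in MN13, 14.2 in MN14 and 8.01 in MN15, while the Y-positive tumors had 8.81 in MP6, 6.17 in MP7, 6.99 in MP8, 8.22 in MP9 and 9.39 in MP10. Here MN15 fell inside the Y-positive range and the other 4 Y-negative libraries above it. The difference was 0.50 ± 0.19 (adjusted p = 0.148, edgeR).

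Mrc1, the mannose receptor gene (ENSMUSG00000026712, chromosome 2, 14229392 to 14332057, plus strand), overlapped between the groups. It stood at 216 CPM in MN11, 117 in MN12, 262 in MN13, 214 in MN14 and 152 in MN15, and at 235 in MP6, 134 in MP7, 143 in MP8, 220 in MP9 and 167 in MP10. The difference was 0.07 ± 0.21 (adjusted p = 0.865, edgeR), and its sign changed in 7 of 20 alternatives.

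Of the 15 tested partners of Mertk in the uptake of dying cells, 0 were called by edgeR or limma-voom, 2 by DESeq2 and 4 at an unadjusted p under 0.05, with a median change of 0.16. The receptor gene Lrp1 was at 1.23 ± 0.35 (adjusted p = 0.0739, edgeR) and the ligand gene Pros1 at -0.93 ± 0.27 (adjusted p = 0.0807, edgeR). Of 16 genes of tissue-resident macrophages 0 were called by edgeR, limma-voom or DESeq2, and 2 had an unadjusted p under 0.05. These were the scavenger receptor gene Stab1 at 0.64 ± 0.22 (adjusted p = 0.131, edgeR) and Lyve1 at -1.06 ± 0.47 (adjusted p = 0.201, edgeR).

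Fcgr1 and Trem2 did not pass the test between the groups. Fcgr1 stood at 30.7 CPM in MN11, 38.9 in MN12, 28.5 in MN13, 22.5 in MN14 and 46.9 in MN15, and the Y-positive libraries had 40.9 in MP6, 33.0 in MP7, 70.1 in MP8, 52.2 in MP9 and 48.4 in MP10. Its difference was -0.54 ± 0.24 (unadjusted p = 0.0443, adjusted p = 0.208, edgeR). It was -0.93 ± 0.23 and called without MN12 and MN15 (adjusted p = 0.0177, edgeR), and -0.19 in the fit that had the length slope as covariate (adjusted p = 0.552, edgeR). Without MN12 and MN15 the fit called 23.6% of all genes and 4 of the 10, Nos2, Spi1, Cd163 and Fcgr1.

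Trem2 stood at 21.9 CPM in MN11, 30.4 in MN12, 19.7 in MN13, 17.2 in MN14 and 34.4 in MN15, and at 24.6 in MP6, 18.8 in MP7, 30.3 in MP8, 35.1 in MP9 and 28.9 in MP10, a difference of -0.15 ± 0.24 (adjusted p = 0.735, edgeR). The 5 other Fc receptor genes each had a negative change (median -0.43), with 0 called by edgeR, limma-voom or DESeq2 and 3 at an unadjusted p under 0.05. Fcgr2b, the inhibitory Fc receptor gene, was at -0.43 ± 0.15 (adjusted p = 0.123, edgeR), and Fcer1g, the signalling chain of Fcgr1, at -0.55 ± 0.20 (adjusted p = 0.138, edgeR). Of 17 genes associated with Trem2, lipid genes and others, 0 were called by edgeR or limma-voom, 1 by DESeq2 and 5 at an unadjusted p under 0.05. The integrin gene Itgax was at -0.59 ± 0.16 and the glycoprotein gene Gpnmb at 0.37 ± 0.16.

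**Figure D4:**
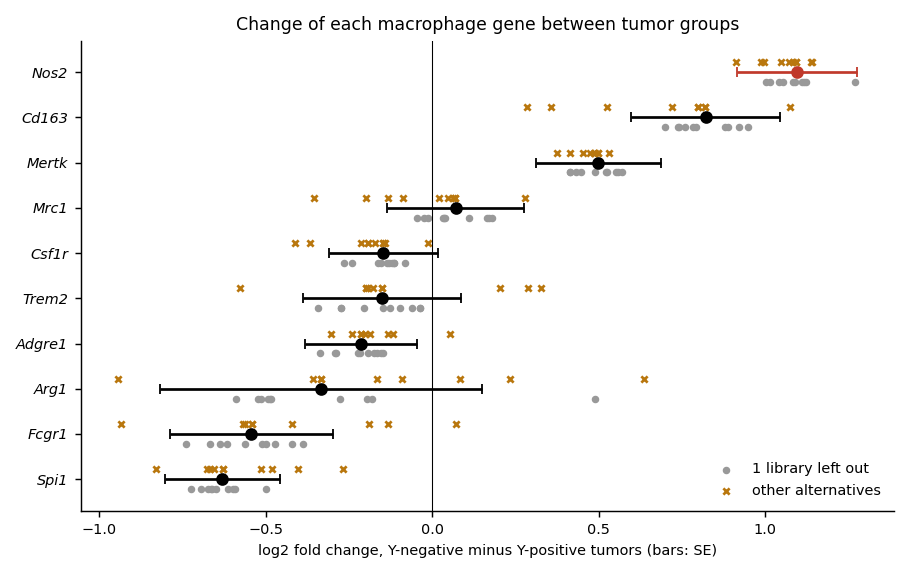
Log2 fold change of each gene, Y-negative minus Y-positive tumors, with its SE (large points; red marks the gene that passed the test). Grey points leave out 1 library each and orange crosses are other alternatives, such as another tool, a length correction or several libraries left out. Nos2 stays between 0.91 and 1.27, while Arg1, Trem2, Mrc1, Fcgr1 and Adgre1 have points on both sides of 0.

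Within the Y-negative tumors, 7 of the 10 genes split along the libraries that stood apart. Arg1, Fcgr1 and Trem2 had their highest levels in MN12 and MN15, and Csf1r, Mrc1, Cd163 and Nos2 their lowest. In the Y-positive tumors MP9, with the lowest slope on transcript length, was highest for Arg1 and Trem2 and lowest for Csf1r and Nos2. Fcgr1, at 52.2 CPM in MP9, was higher in MP8 alone. Mrc1 (220 CPM) and Cd163 (18.5 CPM) went the other way in MP9, where they were exceeded by MP6 alone of that group. This split was seen in the values and not tested. Summed markers of other cells followed it in part. Red blood cell genes had 1706 CPM in MN12 and 2675 in MN15 against 420 to 782 CPM in the other 3, and neutrophil genes 237 and 201 CPM against 53.2 to 132 CPM. T cell genes had 82.6 and 73.5 CPM against 38.9 to 64.0 CPM, and NK cell genes 43.3 and 42.9 CPM against 16.96 to 32.3 CPM. Other lists were lowest in MN12 and MN15. Monocyte genes had 1009 and 1086 CPM against 1817 to 2426 CPM, and fibroblast genes 633 and 782 CPM against 944 to 1430 CPM. Endothelial genes had 48.15 and 65.9 CPM against 79.6 to 99 CPM. Dendritic cell genes had 73.4 and 95.4 CPM against 107 to 125 CPM, and B cell genes 9.24 and 8.28 CPM against 12.6 to 19.3 CPM. Their part in the split was not tested. Over the 10 tumor libraries, which share these length trends, 45 pairs of genes were compared as a description on log2 CPM. Fcgr1 and Trem2 had the highest correlation (Pearson r = 0.874, Spearman rho = 0.891, 0.922 within groups). It was 0.914 without the 2 libraries farthest from the median of Fcgr1. In each pair these 2 libraries were chosen by the first gene named alone. Csf1r and Arg1 had the lowest (r = -0.851, rho = -0.721, -0.926 within groups, -0.692 without 2 libraries), followed by Spi1 and Cd163 (r = -0.831, rho = -0.903, -0.608 within groups, -0.785 without 2 libraries).

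Of 10389 genes that averaged 5 CPM or more in tumors, the pattern most like that of Nos2 over the 10 libraries was that of Arl14ep (r = 0.961, rho = 0.939), then Ntng2 (r = 0.933). Spi1 was followed most closely by Pla1a (r = 0.967) and by C1qc (r = 0.964). For Csf1r these were Spata13 (r = 0.940) and Dpy19l1 (0.932), and for Adgre1 Lztr1 (0.959) and Apobec1 (0.918). Arg1 was followed by the platelet factor gene Pf4 (r = 0.965) and Mapk12 (0.964), Fcgr1 by Ifngr2 (0.977) and Sgk3 (0.969), and Trem2 by Ndufaf5 (0.978) and Mthfd2l (0.977). The nearest genes were Gripap1 (r = 0.941) and Creb5 (0.939) for Cd163, Mettl4 (0.922) and Ednrb (0.904) for Mrc1, and Zgrf1 (0.903) and Zfp280c (0.878) for Mertk. Each is the highest of 10389 values over 10 libraries that share the trends above, and describes these libraries.

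The order of the 10 genes by the authors' median FPKM was much the same in both tumor groups apart from Nos2. This order, too, depends on the lengths behind the FPKM, which are not those listed for the genes. In the Y-negative tumors it ran from Arg1 (72.3) through Mrc1 (57.4), Nos2 (41.0), Spi1 (38.3), Adgre1 (27.6), Csf1r (24.7), Fcgr1 (19.3), Trem2 (11.8) and Cd163 (8.65) to Mertk (3.46). The Y-positive order ran from Arg1 (58.7) through Spi1 (52.7), Mrc1 (44.9), Adgre1 (38.3), Fcgr1 (30.3), Csf1r (27.2), Nos2 (17.2), Trem2 (15.5) and Cd163 (3.90) to Mertk (2.33). Nos2 was the third by this measure in the first group and the seventh in the second. In the Y-negative tumors the ranges of neighbours overlapped except between Cd163 (from 4.18) and Mertk (up to 4.04). Among the Y-positive tumors they also separated Trem2 (from 10.1) from Cd163 (up to 5.50), but not Nos2 (13.6 to 27.5) from Csf1r (from 16.7) or Trem2 (up to 18.9).

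Genes of the interleukin 4 response were lower in the Y-negative tumors where they passed the test. Arg1 and Mrc1, both induced by that cytokine, did not pass. The list also holds a receptor chain and a signal transducer of interleukin 4, so its counts are not of induced genes alone. Of its 18 genes 2 were called, both lower, and 14 had a negative change, with a median of -0.97. DESeq2 called 8, limma-voom 3, and 11 had an unadjusted p under 0.05. Ccl22, a chemokine that draws regulatory T cells, stood at 1.28 CPM in MN11, 1.74 in MN12, 1.65 in MN13, 1.93 in MN14 and 0.59 in MN15, and the other group had 5.89 in MP6, 5.16 in MP7, 5.596 in MP8, 6.73 in MP9 and 4.70 in MP10. It fell by 1.98 ± 0.30 on the log2 scale (adjusted p = 0.0075, edgeR) and kept its call with any 1 library left out, losing it in 1 of 19 alternatives, that without MN11, MN13 and MN14 (adjusted p = 0.112, edgeR). The lectin gene Mgl2 stood at 18.04 to 30.2 CPM against 35.2 to 49.5 CPM, without overlap, and fell by 0.88 ± 0.18 (adjusted p = 0.0264, edgeR). Its call was lost without MN11 (adjusted p = 0.0799), MN13 (0.0507), MN14 (0.0806), MP8 (0.0702) or MP9 (0.0607), without MN11, MN13 and MN14 (-0.63, 0.398) and with the macrophage list as covariate (-0.60, 0.238), all by edgeR. Without MN12 and MN15 Mgl2 was at -1.09 (adjusted p = 0.00538, edgeR). Both genes are also made by dendritic cells, of whose 11 tested genes 0 were called higher and 1 lower. That gene was the chemokine receptor gene Ccr7, at -1.68 ± 0.30 (adjusted p = 0.0165, edgeR). It lost its call without MP8 (adjusted p = 0.0550), without MN11, MN13 and MN14 (0.186) and with the macrophage list as covariate (0.133), all by edgeR. Of the 11 dendritic cell genes 9 had a negative change, with a median of -0.68, and 5 had an unadjusted p under 0.05 by edgeR. Their summed level was 73.4 to 125 CPM against 107 to 115 CPM. Much of that sum was Flt3 and Fscn1, picked with their values known, at means of 39.4 and 42.25 CPM in the Y-negative tumors. The cultures, too, had 41.2 and 15.7 CPM of them (Y-negative) and 27.7 and 8.52 CPM (Y-positive). The part of dendritic cells in the result was not tested.

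Genes of the response to interferon gamma and toll-like receptor ligands, the classical inducers of Nos2, did not pass the test. The list also holds receptors and adaptors of these pathways, so its counts mix them with induced genes. Of 25 genes tested, 0 were called by edgeR or limma-voom, 1 by DESeq2 and 8 at an unadjusted p under 0.05, and 18 had a negative change (median -0.28). The costimulatory gene Cd80 was at -0.84 ± 0.21 (adjusted p = 0.0538, edgeR). The summed level of these genes was 901 to 1133 CPM in the Y-negative and 1049 to 1438 CPM in the Y-positive tumors.

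Of 12 monocyte genes 0 were called by edgeR or limma-voom, 4 by DESeq2 and 6 at an unadjusted p under 0.05, with a median of -0.63. Fibronectin, Fn1, which fibroblasts and tumor cells make as well, was at 1.36 ± 0.33 (adjusted p = 0.0507, edgeR) and the inflammatory monocyte gene Ly6c2 at -0.99 ± 0.26 (adjusted p = 0.0612, edgeR). Of 14 genes of the colony stimulating factor axis 0 were called by edgeR, limma-voom or DESeq2 and 5 had an unadjusted p under 0.05. Csf1, the ligand of the Csf1r product, was at 0.48 ± 0.17 (adjusted p = 0.131, edgeR), with 129 to 218 CPM in the Y-negative and 97.6 to 179 CPM in the Y-positive tumors. Runx1, a transcription factor of blood cell formation, was at 0.52 ± 0.18 (adjusted p = 0.132, edgeR).

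Markers of other cells that the tumors could hold were measured in the same libraries. Of 8 tested neutrophil genes 1 was called, Ltf, at 0.91 to 1.24 CPM against 0.05 to 0.46 CPM, and their summed level was 53.2 to 237 CPM in the Y-negative and 43.6 to 94.6 CPM in the Y-positive tumors. Of these 8 genes 1 had a negative change, the median was 0.53, and 4 had an unadjusted p under 0.05 by edgeR. Ltf was not called in 12 of 20 alternatives, 8 of them with 1 library left out (without MN11, MN13, MN14, MN15, MP6, MP7, MP8 or MP10, adjusted p = 0.0525 to 0.105, edgeR), and had adjusted p = 0.394 without MN11, MN13 and MN14. Of the 12 neutrophil genes 1 was at 0 reads in the Y-positive group. Of 5 tested mast cell genes 3 were called, all lower: the protease genes Mcpt4 (-2.15 ± 0.39), Cma1 (-2.47 ± 0.46) and Tpsb2 (-1.97 ± 0.37). Kit, a mast cell gene without a call and picked with its values known, stood at 4.47 against 4.58 CPM. Of 7 fibroblast genes the proteoglycan gene Dcn was called higher (1.07 ± 0.14) and Lum (-2.07 ± 0.36), Pi16 (-2.16 ± 0.38) and Col3a1 (-1.32 ± 0.28) lower.

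The mast cell and fibroblast calls depended on the libraries. None of these 7 genes was called without MN11, MN13 and MN14 (adjusted p = 0.0631 for Dcn to 0.187 for Tpsb2, edgeR), and with the macrophage list as covariate Dcn alone was called. With 1 library left out, calls were lost for Mcpt4 without MP8 (adjusted p = 0.0532), Cma1 without MN14 (0.0620) or MP8 (0.0576) and Tpsb2 without MN11 (0.0553), MN14 (0.0638) or MP8 (0.0576), all by edgeR. They were also lost for Lum without MN11 (0.0514) and with limma-voom (0.0503), Pi16 without MN11 (0.0515), and Col3a1 without MN11 (0.0914), MN14 (0.0681), MP8 (0.0757), MP9 (0.0609) or MP10 (0.0603), by edgeR where no other tool is named. Of the skin keratinocyte genes 1 had reads enough for the test, the keratin gene Krt14, and it was lower (-2.28 ± 0.20, adjusted p = 8.59e-05, edgeR) and called in 20 of 20 alternatives. The summed level of the 4 listed keratinocyte genes, which includes Krt14, was 19.3 to 28.0 CPM in the Y-negative and 75.6 to 144 CPM in the Y-positive tumors, without overlap. Of these genes 2, Krt14 among them, were also listed for cultures, which hold no skin. Their sum there was 0.29 to 3.90 CPM (Y-negative) and 0.60 to 4.56 CPM (Y-positive). The source of Krt14 in the tumors was not tested. T cell (11 tested) and NK cell (6 tested) genes had 0 called by edgeR, limma-voom or DESeq2, with 3 and 4 at an unadjusted p under 0.05. The change was negative for 9 T cell genes (median -0.47) and 5 NK cell genes (median -0.85). Summed T cell genes had 38.9 to 82.6 CPM in the Y-negative and 44.9 to 113 CPM in the Y-positive tumors. NK cell genes had 16.96 to 43.3 against 42.8 to 67.95 CPM. Of the endothelial (5 tested), skeletal muscle (5), adipocyte (4), red blood cell (5) and B cell (2) genes 0 were called by edgeR or limma-voom, and 1 endothelial and 1 adipocyte gene by DESeq2. At an unadjusted p under 0.05 there were 2 endothelial, 4 adipocyte and 1 B cell gene, and 0 muscle or red blood cell genes. Summed levels were 7.07 to 545 against 2.86 to 2100 CPM for muscle, 10.5 to 39.5 against 20.1 to 216 CPM for adipocyte and 420 to 2675 against 445 to 1257 CPM for red blood cell genes. The part of these cells in the Nos2 result was not tested.

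In the cultures, labelled as the cell line, Spi1, Csf1r and Trem2 were close to 0 while Nos2 and Mrc1 had 17.7 CPM or more in each library. Csf1r had 11 reads over the 5 Y-negative cultures and 24 over the Y-positive ones, which is 0.11 CPM with a 95% exact Poisson interval of 0.06 to 0.20 and 0.28 CPM (0.18 to 0.42). Spi1 had 21 reads in each group, 0.22 CPM (0.13 to 0.33) and 0.25 CPM (0.15 to 0.38). Trem2 had 63 and 25 reads, and 37 of the 63 came from BN10, at 2.06 CPM. These intervals cover counting error only. Of the 22 shared macrophage genes 8 were listed for cultures. Ptprc, the pan-leukocyte gene, had 0.00 to 0.26 CPM in Y-negative and 0.00 to 1.20 CPM in Y-positive cultures, and Ctss 0.05 to 0.26 and 0.00 to 2.02 CPM. The lysosomal gene Cd68, which many cell types make, had 27.7 to 177 CPM and the lipopolysaccharide co-receptor gene Cd14 16.2 to 49.0 CPM over all 10 cultures.

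Nos2 stood at 17.7 CPM in BN2, 19.03 in BN3, 48.7 in BN6, 24.8 in BN9 and 107 in BN10, against 23.8 in MB8, 24.6 in MB11, 25.4 in MB17, 40.7 in MB19 and 20.7 in MB34. BN10 alone reached the level of the Y-negative tumors, and BN10 and BN6 lay above all Y-positive cultures while BN2 and BN3 lay below them. The difference between the groups was 0.61 ± 0.43 (adjusted p = 0.480, edgeR), and it was -0.03 ± 0.29 without BN10. Mrc1 stood at 17.9 CPM in BN2, 71.5 in BN3, 28.2 in BN6, 154 in BN9 and 127 in BN10, against 87.9 in MB8, 97.8 in MB11, 78.3 in MB17, 31.4 in MB19 and 144 in MB34, a difference of -0.20 ± 0.52 (adjusted p = 0.872, edgeR). Mrc1 varied widely within both groups, from BN2 to BN9 and from MB19 to MB34. Of the 10 genes these 2 had enough reads to be tested in cultures, and 0 were called by edgeR, DESeq2 or limma-voom or at an unadjusted p under 0.05, where 0.0321% of all genes were called. In the cultures 0 genes of the lists named above were called by edgeR.

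**Figure D5:**
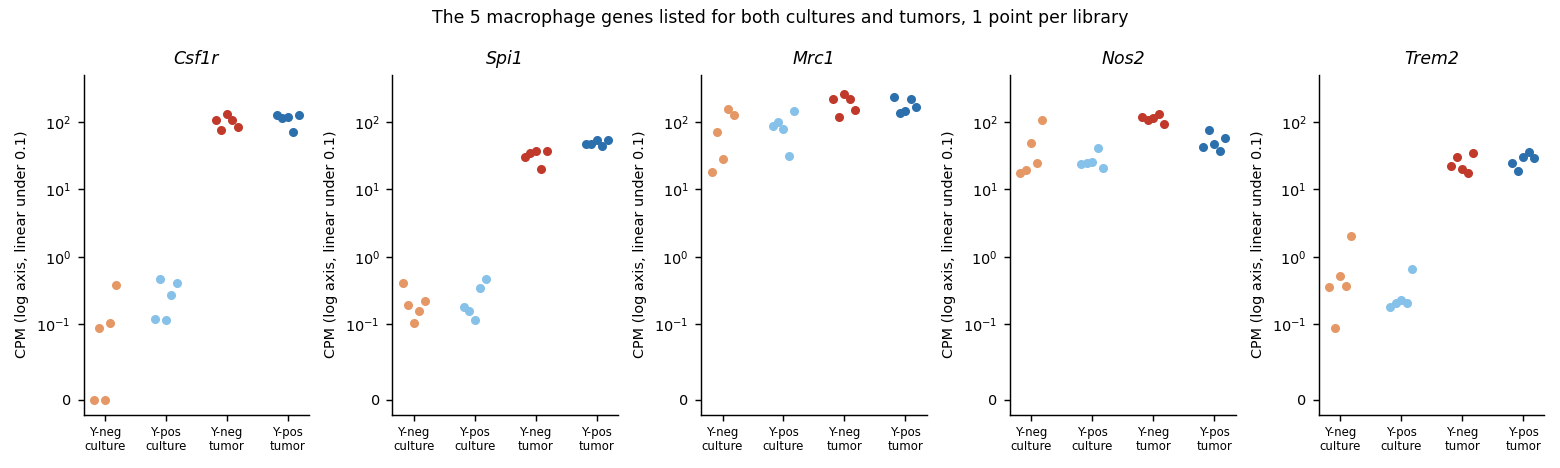
Level in CPM of the 5 genes listed for both cultures and tumors, 1 point per library, on a log axis that is linear under 0.1 CPM so that 0 can be drawn. Csf1r, Spi1 and Trem2 are at 2.06 CPM or less in all cultures and at 17.2 CPM or more in all tumors, while Mrc1 and Nos2 are at 17.7 CPM or more in both.

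The proportion of Mrc1 to Csf1r reads differed between the 2 kinds of material. In tumors the CPM of Mrc1 was 1.18 to 3.07 times that of Csf1r. In the 8 cultures with any Csf1r reads it was 114 to 1481 times that of Csf1r, a ratio that rests on 2 to 9 Csf1r reads a library, and BN2 and BN6 had no Csf1r read.

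Tumors were then compared with cultures of the same genotype. The 2 kinds of material also differ in their gene tables and cannot be separated from any difference in preparation. Csf1r, Spi1 and Trem2 entered the joint fit through their tumor reads alone, so that fit is no test of them, and their levels stand as a description. Csf1r was at 71.6 CPM or more in each tumor and at 0.468 CPM or less in each culture, and Spi1 at 20.25 CPM or more against 0.474 CPM or less. Trem2 was at 17.2 CPM or more in each tumor and at 2.06 CPM or less in each culture. Nos2 and Mrc1 had reads enough in both. In the Y-negative line both were higher in tumors, where 28.1% of all genes were called higher. Nos2 differed by 1.22 ± 0.35 (adjusted p = 0.00516, edgeR) and Mrc1 by 1.09 ± 0.43 (adjusted p = 0.0344, edgeR). The Mrc1 call was lost without MN11 (adjusted p = 0.0636), MN13 (0.0877), MN14 (0.0624), BN2 (0.0741), BN3 (0.0641) or BN6 (0.102), all by edgeR.

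In the Y-positive line 0 of these 2 genes were called by edgeR, where 31.7% of all genes were called higher in tumors, and 1 had an unadjusted p under 0.05. Nos2 was at 0.78 ± 0.35 (adjusted p = 0.0580, edgeR; 0.0412 with DESeq2 and 0.0465 with limma-voom) and Mrc1 at 0.87 ± 0.43 (adjusted p = 0.0823, edgeR). Nos2 was called without MP6 (adjusted p = 0.0499), BN2 (0.0397), BN3 (0.0425), BN10 (0.00817) or MB19 (0.0275), and Mrc1 without BN2 (0.0419) or MB34 (0.0335), all by edgeR.

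Whether the genotype difference itself differed between tumors and cultures was tested for Nos2 and Mrc1 as an interaction over all 20 libraries. Of the 2 genes 0 were called by edgeR, DESeq2 or limma-voom and 0 had an unadjusted p under 0.05, where 4.56% of all genes were called. Nos2, at 1.10 in tumors and 0.61 in cultures in the separate fits, gave 0.45 ± 0.49 (adjusted p = 0.637, edgeR), and Mrc1 0.23 ± 0.60 (adjusted p = 0.860, edgeR). The rise of Nos2 in Y-negative tumors was thus not shown to differ from its difference in culture, whose SE was larger than that in tumors.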

How the data were processed

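RNA-seq was read in 20 libraries of MB49 cells and tumors. Per the labels' protocols, RNA was extracted on columns and made into SMARTER mRNA libraries. STAR 2.7.0d, RSEM 1.3.1, cutadapt 2.3, MultiQC 1.8, FastQC 0.11.5 and build mm10 are named in the submitters' processing notes. The sources used here do not give the strand setting or annotation release. The deposited tables hold, per the file headers, a whole-number read count for each gene, which was the value tested. They also give the authors' FPKM, used to compare levels between genes. The 20 normalized columns were not used (that of MN14 repeats MN13). Names missing from the MN12 table were taken by gene ID.

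Counts were fitted with edgeR 4.0.16 in R 4.3.3 (TMM scaling, filterByExpr with minimum count 10 and total 15, quasi-likelihood F-test, Benjamini-Hochberg adjustment over all genes, called under 0.05), separately for tumors and cultures and over all 20 libraries for the other comparisons. DESeq2 1.42.0, limma-voom (limma 3.58.1), RLE scaling, no filter, length corrections, the macrophage list as covariate and left-out libraries were alternatives. The fit was tested on simulated data. Differences relative to the list of 22 genes or between genes were taken on log2 of CPM or FPKM plus 0.1. The 10 genes and the gene lists were chosen with earlier results of these data known. The genes named are the 10, the called genes of each list (at most 4) or else the 2 of smallest p, and for each of the 10 the 2 genes nearest in pattern, leaving out predicted genes and pseudogenes. Genes of other cell types that the rule names without a call are given as counts. Beside these, 1 gene that the rule names and 1 motif are not reported here. The split of the Y-negative tumors by MN12 and MN15 comes from the data.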

Additional observations from a re-analysis of the deposited data

Results flagged for a closer look

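A single library lay far from the 4 others in 6 of 30 gene and group combinations of 5 libraries, each with a gap of more than 0.71 of the group's range. For 5 independent, normally distributed values such a gap arises about 1 time in 20. These CPM values share libraries and partly rest on few reads, so that rate is no yardstick for the 6 flags. In the Y-positive tumors MP9 had 237 CPM of Arg1, where the next library had 57.4, and 71.6 CPM of Csf1r, where the next had 114. In the Y-negative cultures BN10 had 2.06 CPM of Trem2 (next 0.522) and 0.390 CPM of Csf1r (next 0.104). In the Y-positive cultures MB19 had 40.7 CPM of Nos2 (next 25.4) and MB34 0.652 CPM of Trem2 (next 0.234). The Csf1r and Trem2 values in cultures rest on 7, 37 and 11 reads in those libraries.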

How the results depend on the processing

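Over the values of single genes under alternatives, 325 kept their direction and side of the threshold, 16 became called, 9 lost a call and 23 changed sign, leaving out Csf1r, Spi1 and Trem2 where cultures enter. No paired analysis was possible because the groups compared share fewer than 2 library numbers. In tumors, the number of the 10 genes called was 1, where 2.45% of all genes were called, and 3 with DESeq2 (9.0%). It was 0 of 5 in the fit over all 20 libraries (2.23%) and 4 without MN12 and MN15 (23.6%). It was 0 without MN11, MN13 and MN14 (0.132%) and 0 with the macrophage list as covariate (0.237%). With 1 library left out it was 1 to 3 (3 without MN12). In the Y-positive line, tumors against cultures gave 3 to 5 of 5 with 1 library left out (5 without BN2), counts that include Csf1r, Spi1 and Trem2, which passed the filter through their tumor reads. The share of all genes called in the fits with 1 library left out is not given here, so these counts cannot be set against it. In tumors, with the macrophage list as covariate, the sign turned for Adgre1 (0.0525), Fcgr1 (0.0723), Mrc1 (-0.20), Arg1 (0.0839) and Trem2 (0.33). With the length slope as covariate it turned for Mrc1 (-0.13), Arg1 (0.64) and Trem2 (0.20), and with length trends removed by offsets for Mrc1 (-0.0865). Without MN11, MN13 and MN14 it turned for Mrc1 (-0.36), Arg1 (0.23) and Trem2 (0.29). With 1 library left out, Mrc1 ran from -0.0449 to 0.18 and Arg1 from -0.59 to 0.49 in tumors, Mrc1 from -0.60 to 0.0749 and Nos2 from -0.0266 to 0.81 in cultures, and the interaction of Mrc1 from -0.0503 to 0.62. The cause of these changes was not tested. The count of genes called in tumors was 362 of 14783, 1331 with DESeq2, 3630 without MN12 and MN15 and 21 without MN11, MN13 and MN14. In cultures, Csf1r, Spi1 and Trem2 had too few reads to compare the genotypes.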
